A study of Mus musculus with 16 samples.

Results

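Coenzyme Q is the lipid that carries electrons through the respiratory chain and, outside mitochondria, traps radicals that would oxidize membrane lipids. Its long isoprenoid tail is built by the PDSS1 and PDSS2 subunits of a prenyl transferase, COQ2 joins the tail to a benzoquinone ring precursor, and COQ3, COQ5, COQ6 and COQ7 modify the ring inside a complex that COQ8A and COQ9 support. FSP1, the protein of Aifm2, uses NAD(P)H to keep coenzyme Q reduced at the cell membrane, a defence against ferroptosis that acts beside the glutathione peroxidase GPX4. The transcripts described here are those of 10 genes chosen by name for these roles, Pdss1, Pdss2, Coq2, Coq3, Coq5, Coq6, Coq7, Coq8a, Coq9 and Aifm2, out of 40840 genes counted. All 10 had enough counts to be tested.

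They were measured by mRNA sequencing in p53-/-; Myc hepatoblasts, an immortal mouse liver progenitor line that lacks p53, overexpresses Myc and forms tumors, and which the labels give the cell type HCC (hepatocellular carcinoma). Sorafenib, a multikinase inhibitor used against this cancer, was given at 8.5 µM. The 4 groups were sorafenib and the vehicle DMSO after 48 hours and after 7 days, with 4 libraries in each. Every group carried the same p53 loss and Myc overexpression, and all libraries came from the same line. The labels do not say whether replicates were separate cultures, so p-values measure the spread between these libraries only.

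Promoter windows were available from RefSeq for 9 of the 10 genes, in the build GRCm38.p6, and Coq5 had no entry. Those of the 3 genes that were lower with sorafenib at both times are shown, together with that of Coq2. Coq2 was higher at both times, as were Coq5 and Pdss2, whose window is not shown. Each window shown is the 250 bases before a transcription start, 5′ to 3′ on the strand of the gene, and capitals mark a searched motif.
Coq8a, downstream start (chr1:180193486-180193735, minus strand): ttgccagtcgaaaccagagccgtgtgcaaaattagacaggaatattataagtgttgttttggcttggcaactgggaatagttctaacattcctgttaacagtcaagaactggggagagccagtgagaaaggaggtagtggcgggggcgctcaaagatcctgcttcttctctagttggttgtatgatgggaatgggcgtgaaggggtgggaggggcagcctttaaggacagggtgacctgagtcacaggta
Coq8a, upstream start (chr1:180196021-180196270, minus strand): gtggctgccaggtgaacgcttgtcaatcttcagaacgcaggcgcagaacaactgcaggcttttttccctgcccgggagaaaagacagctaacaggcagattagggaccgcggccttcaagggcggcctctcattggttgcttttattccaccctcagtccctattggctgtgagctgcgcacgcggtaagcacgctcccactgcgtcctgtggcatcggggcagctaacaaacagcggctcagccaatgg
Coq7 (chr7:118533357-118533606, minus strand): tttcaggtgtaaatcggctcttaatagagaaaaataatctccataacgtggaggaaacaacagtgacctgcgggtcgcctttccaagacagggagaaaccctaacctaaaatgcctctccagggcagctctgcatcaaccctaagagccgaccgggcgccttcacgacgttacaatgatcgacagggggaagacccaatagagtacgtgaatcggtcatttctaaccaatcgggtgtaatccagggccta
Aifm2 (chr10:61720399-61720648, plus strand): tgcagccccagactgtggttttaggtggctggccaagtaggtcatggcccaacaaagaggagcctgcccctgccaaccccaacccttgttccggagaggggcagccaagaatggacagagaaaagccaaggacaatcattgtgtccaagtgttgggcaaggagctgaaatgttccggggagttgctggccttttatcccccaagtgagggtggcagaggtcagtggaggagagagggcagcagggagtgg
Coq2 (chr5:100674257-100674506, minus strand): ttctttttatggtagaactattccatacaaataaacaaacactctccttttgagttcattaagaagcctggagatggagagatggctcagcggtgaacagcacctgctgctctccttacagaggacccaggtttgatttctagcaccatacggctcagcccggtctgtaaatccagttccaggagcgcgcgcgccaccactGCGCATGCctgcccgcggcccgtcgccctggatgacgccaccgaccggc
The capitals in Coq2 are GCGCATGC, the motif of the respiratory gene activator NRF1, 49 bases before the start. 4 motifs were searched on both strands. The NRF1 letters stood in 1 of the 11 windows of these genes and in 2.26% of all 32851 windows. The nuclear receptor half-site AAGGTCA stood in 1 window, that of Pdss1, and in 4.08% of all windows. Neither the E-box CACGTG, which MYC can bind, nor the ATF4 with C/EBP element TTGCATCA stood in any of the 11 windows, against 6.02% and 0.791% of all windows. The windows shown for Coq8a, Coq7 and Aifm2 therefore hold none of the searched letters. Neither does the window of Pdss2, which like Coq2 was higher at both times.

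Total counts per library ranged from 16586254 to 30828427. In replicate 2 of sorafenib for 48 hours, genes on chromosomes 15 to 19 and X stood lower than in the other replicates, by a log2 step of −0.72 relative to chromosomes 1 to 13. No coenzyme Q gene of the 10 lies on those chromosomes, but Parl and Aifm3, named further on, lie on chromosome 16. In this library the median log2 deviation from the other replicates was 0.090 for genes on chromosomes 1 to 13 and 0.084 for the 10 genes. Without this library the 10 genes gave the same counts of calls at 48 hours and at 7 days. Among the 10, Pdss1 at 48 hours moved most, from a log2 fold change of 0.43 to 0.36.
Marker genes were read against the label of the cells. Of 10 markers of hepatocytes and liver progenitors, 8 were expressed enough to be tested, and Dlk1 (mean 32234 normalized counts in DMSO at 48 hours), Krt19 (2626), Foxa2 and Sox9 were among them. Hnf4a had 0 counts in every library, Alb at most 1, and Afp at most 14, so these defining liver markers were absent or nearly so. All 5 stellate cell markers had counts, but at very unequal levels. In DMSO at 48 hours the means were 41939 for Col1a1, 4683 for Acta2 and 1668 for Pdgfrb. Col1a2 and Des were low, with means of 86.2 and 89.5 in the same group. Of 4 leukocyte markers, Adgre1 and Cd3e were at 0 and Ptprc had at most 4 counts. The other, Cd68, had means of 68.3 and 67.6 in DMSO and sorafenib at 48 hours and 69.1 and 66.0 at 7 days. Of the endothelial markers, 2 were tested and 1 was higher with the drug at both times. Kdr had means of 48.5 and 121.7 in DMSO and sorafenib at 48 hours and 31.3 and 196.9 at 7 days. Of the stellate markers, 3 were higher and 1, Pdgfrb, lower with the drug at 48 hours, and 3 were higher and 2, Pdgfrb and Des, lower at 7 days. Pdgfrb had means of 1668 and 977 in DMSO and sorafenib at 48 hours and 718 and 469.8 at 7 days. The sum over the 5 is mostly Col1a1 and Acta2. Summed normalized counts of the stellate markers ranged over 46738 to 49825 in DMSO and 133486 to 154791 in sorafenib at 48 hours, and over 66171 to 67940 and 114450 to 119563 at 7 days. The summed liver markers ranged over 35003 to 36371 in DMSO and 12889 to 14807 in sorafenib at 48 hours, and over 18791 to 20604 and 6899 to 7163 at 7 days, a sum that is mostly Dlk1. Of the 8 liver markers tested, 2 were higher and 5 lower with the drug at 48 hours, and 2 were higher and 6 lower at 7 days. The higher ones were Foxa2, with means of 211 and 722 in DMSO and sorafenib at 48 hours and 480.1 and 862 at 7 days, and Sox9, with 213 and 664 at 48 hours and 349.7 and 904 at 7 days. The part of these markers in the results on coenzyme Q genes was not tested, and in bulk RNA fewer cells of a type cannot be told apart from less RNA per cell.

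After 48 hours of sorafenib, 5 of the 10 genes were higher than in DMSO, 4 were lower and 1, Coq9, was not called, at a false discovery rate (FDR, the Benjamini-Hochberg adjusted p of edgeR's quasi-likelihood test) under 0.05. Among all 20444 genes tested, 26.9% were higher and 27.7% lower. The higher genes build the tail, attach it or add methyl groups to the ring (Pdss1, Pdss2, Coq2, Coq3 and Coq5), and the lower ones were Coq6, Coq7, Coq8a and Aifm2. At 7 days, 4 genes were higher (Pdss2, Coq2, Coq5 and Coq9), 3 were lower (Coq7, Coq8a and Aifm2) and Pdss1, Coq3 and Coq6 were not called, against 28.9% of all genes higher and 27.9% lower. 3 genes were higher at both times and 3 lower at both times, where 18.5% and 18.0% of all genes were. The libraries of both treatments did not overlap for 8 of the 10 genes at 48 hours and for 7 at 7 days, beside 48.0% and 56.8% of all genes. The median log2 fold change of the 10 genes was 0.22 at 48 hours and 0.021 at 7 days, and that of all genes −0.051 and 0.020.

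**Figure D1:**
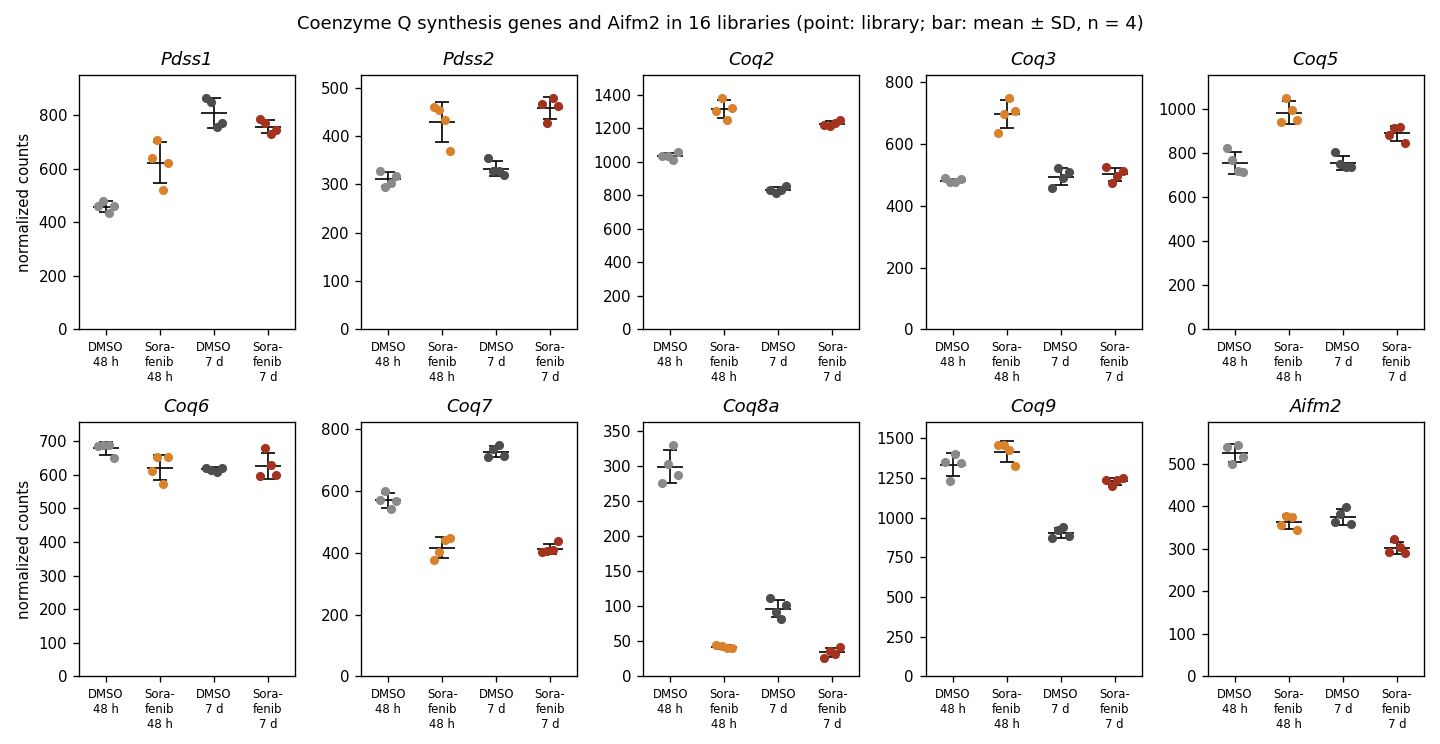
Normalized counts of the 10 genes (y axis, from 0) in each of the 16 libraries, by treatment and time (x axis). Points are libraries and bars the mean ± SD of 4. Coq8a dropped from a mean of 299 in DMSO to 42.1 in sorafenib at 48 hours, while Coq2 stood at 1035 and 1314.

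Coq8a, which encodes an atypical kinase-like ATPase needed for coenzyme Q synthesis (chr1:179992803-180029294 on GRCm39, minus strand), changed most among the 10 in response to sorafenib. It had 277, 303, 331 and 287 normalized counts in the 4 DMSO libraries and 44.9, 43.9, 40.0 and 39.8 in the 4 sorafenib libraries at 48 hours. At 7 days the counts were 111, 91.7, 82.0 and 102 in DMSO and 25.9, 36.5, 31.5 and 42.3 in sorafenib. Every sorafenib library stood below every DMSO library of its time, and the DMSO libraries at 7 days were themselves far below those at 48 hours. The level was 7.13-fold lower with sorafenib at 48 hours (log2 fold change −2.83 ± 0.12 SE, edgeR adjusted p = 5.07e-14) and 2.80-fold lower at 7 days (−1.48 ± 0.14, adjusted p = 9.25e-09). Over all alternatives the 48 hour value ranged from −2.91 to −2.79. The drop was smaller at 7 days by 1.35 on the log2 scale (95% interval 0.94 to 1.76, adjusted p = 1.36e-05). Sorafenib libraries of the 2 times differed by −0.28, with an interval of −0.64 to 0.066 (adjusted p = 0.196), whereas DMSO libraries fell by 1.64 (adjusted p = 3.1e-11). The smaller response at 7 days thus came with a lower DMSO level. Counts behind the sorafenib values were few, 29 to 42 reads per library at 48 hours and 23 to 45 at 7 days.

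Aifm2, which encodes FSP1 (chr10:61540677-61577788 on GRCm39, plus strand), had 539, 498, 544 and 515 normalized counts in DMSO and 355, 377, 374 and 344 in sorafenib at 48 hours. At 7 days it had 363, 380.3, 398 and 357 in DMSO and 291, 322, 303 and 289 in sorafenib. All sorafenib libraries were below all DMSO libraries at either time, and vehicle cells at 7 days overlapped with treated cells at 48 hours. The log2 fold change was −0.53 ± 0.056 at 48 hours (edgeR adjusted p = 7.12e-08) and −0.31 ± 0.057 at 7 days (adjusted p = 8.16e-05). The responses differed by 0.22 (adjusted p = 0.0368), a call that was lost without DMSO 7 days replicate 1 (0.20, adjusted p = 0.0654) or replicate 4 (0.20, adjusted p = 0.0741), and without sorafenib 7 days replicate 2 (0.18, adjusted p = 0.091) or replicate 3 (0.22, adjusted p = 0.0586). Aifm2 also fell over time, by 0.48 in DMSO and by 0.26 in sorafenib (edgeR adjusted p = 2.52e-07 and 0.00118). Of its exon bases, 12% overlap Macroh2a2 on the opposite strand, and how the counting treated strand is not given in the sources used here.

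Both tail genes rose at 48 hours. Pdss1, a subunit of the prenyl transferase (chr2:22785492-22830278 on GRCm39, plus strand), had 461, 479.8, 434 and 462 normalized counts in DMSO and 639.8, 709, 521 and 624 in sorafenib at that time. At 7 days it had 865, 848, 755 and 769.8 in DMSO and 787, 769.9, 729 and 747 in sorafenib. At 48 hours the treatments did not overlap (log2 fold change 0.43 ± 0.074, edgeR adjusted p = 5.17e-05). At 7 days they did (−0.094, interval −0.24 to 0.049, adjusted p = 0.255), and the responses differed by −0.52 (adjusted p = 0.000326). Vehicle cells had meanwhile risen by 0.82 on the log2 scale (adjusted p = 8.12e-09), above the level of treated cells at 48 hours.
Pdss2, the partner subunit (chr10:43097429-43344225 on GRCm39, plus strand), ranged over 295 to 327 in DMSO and 368 to 460.2 in sorafenib at 48 hours, and over 319 to 355 and 426 to 478 at 7 days. Treated and vehicle libraries did not overlap at either time. The increase was 0.46 at 48 hours and 0.46 at 7 days on the log2 scale (edgeR adjusted p = 9.15e-06 and 4.53e-06), with a difference of 0.0054 and an interval of −0.19 to 0.21. DMSO libraries of the 2 times overlapped for Pdss2.

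Coq2, the enzyme that attaches the tail (chr5:100802559-100823006 on GRCm39, minus strand), had 1034, 1034, 1012 and 1061 normalized counts in DMSO and 1302, 1382, 1250 and 1323 in sorafenib at 48 hours. At 7 days DMSO libraries had 833, 817, 832 and 854 and sorafenib libraries 1220, 1214, 1232 and 1251. Treated libraries were higher than vehicle libraries throughout, and the vehicle level was lower at 7 days. The log2 fold change grew from 0.34 ± 0.037 to 0.56 ± 0.037 (edgeR adjusted p = 1.01e-07 and 5.65e-11), a difference of 0.22 (adjusted p = 0.00226).

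The ring enzymes went different ways. Coq3, an O-methyltransferase (chr4:21879624-21913961 on GRCm39, plus strand), had 489, 476, 476 and 486 normalized counts in DMSO and 637, 697, 749 and 706 in sorafenib at 48 hours. At 7 days the counts were 457, 522, 489 and 511 in DMSO and 524, 475, 495 and 513 in sorafenib. Sorafenib at 48 hours was the group that stood apart from the other 3. The log2 fold change was 0.54 ± 0.055 at 48 hours (edgeR adjusted p = 4.53e-08) and 0.015 at 7 days (interval −0.10 to 0.13, adjusted p = 0.83), and the difference between the responses was −0.52 (adjusted p = 1.8e-05).
Coq5, a C-methyltransferase (chr5:115417725-115436585 on GRCm39, plus strand), ranged over 713 to 823 in DMSO and 939 to 1049 in sorafenib at 48 hours, and over 736 to 802 and 845 to 917 at 7 days. The treatments did not overlap at either time. Coq5 was higher by 0.38 at 48 hours and 0.24 at 7 days on the log2 scale (edgeR adjusted p = 3.22e-06 and 0.000601), with no called difference between them (−0.14, interval −0.30 to 0.010). Its exons share 26.9% of their bases with Dynll1 on the opposite strand, and how many of its reads that touches was not tested.
Coq6, a monooxygenase (chr12:84408394-84420767 on GRCm39, plus strand), ranged over 652 to 689.7 and 573 to 652 in DMSO and sorafenib at 48 hours and over 608 to 622 and 597 to 679 at 7 days. The groups overlapped at both times. The call at 48 hours (−0.13, edgeR adjusted p = 0.0395) was lost without DMSO replicate 2 (−0.12, adjusted p = 0.0838) and without sorafenib replicate 3 (−0.12, adjusted p = 0.0665). At 7 days the value was 0.026 (interval −0.080 to 0.13).

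Coq7, the hydroxylase that acts before the last methylation (chr7:118108882-118132579 on GRCm39, minus strand), had 571, 599, 542 and 567 normalized counts in DMSO and 377, 402, 442 and 447 in sorafenib at 48 hours. At 7 days it had 711, 736, 750.1 and 714 in DMSO and 403, 404, 408 and 438 in sorafenib. Treated libraries were at a similar level at both times, and vehicle libraries were higher at 7 days. The log2 fold change was −0.44 ± 0.056 at 48 hours and −0.82 ± 0.053 at 7 days (edgeR adjusted p = 9.1e-07 and 4.92e-11), a difference of −0.37 (adjusted p = 0.000627).
Coq9 encodes a lipid-binding protein that works with COQ7 (chr8:95564949-95581525 on GRCm39, plus strand). It had 1348, 1230, 1403 and 1347 normalized counts in DMSO and 1459, 1455, 1429 and 1324 in sorafenib at 48 hours, and the groups overlapped. At 7 days it had 871, 921, 938 and 881 in DMSO and 1235, 1196, 1236 and 1247 in sorafenib. The vehicle libraries at 7 days were the low group. Its log2 fold change was 0.089 at 48 hours (interval −0.0043 to 0.18, edgeR adjusted p = 0.101) and 0.44 ± 0.045 at 7 days (adjusted p = 4.33e-08), and the responses differed by 0.35 (adjusted p = 0.000143). Opposite-strand exons of Ciapin1 cover 12.3% of its exon bases.

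**Figure D2:**
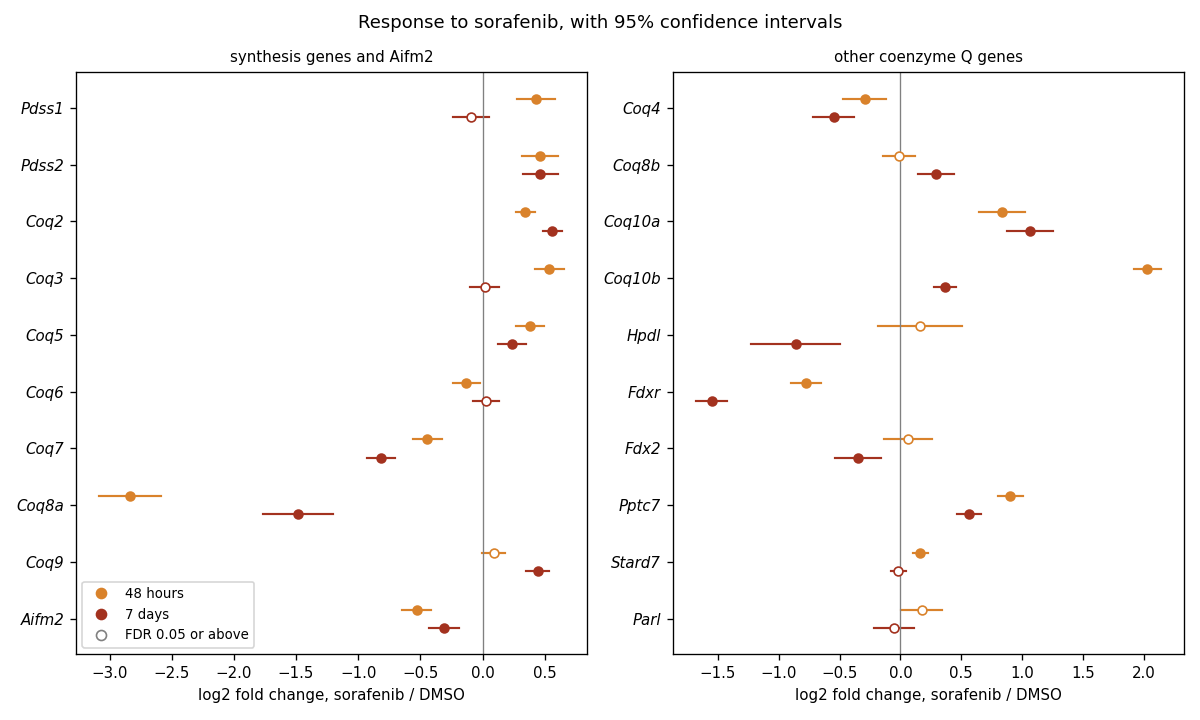
Log2 fold change between sorafenib and DMSO (x axis) for the 10 genes (left) and 10 other coenzyme Q genes (right), at 48 hours and 7 days. Lines are 95% confidence intervals from edgeR and open points have an FDR of 0.05 or above. Coq8a lies at −2.83 and −1.48, Coq10b at 2.03 and 0.37.

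A test of the difference between the 7 day and 48 hour responses called 7 of the 10 genes. It was positive for Coq2, Coq8a, Coq9 and Aifm2 and negative for Pdss1, Coq3 and Coq7, against 15.5% of all genes positive and 21.3% negative. With scaling by total counts in place of TMM, 4125 genes were positive and 3292 negative, where TMM gave 3162 and 4353. Coq6 had 0.16 with an interval of 0.0048 to 0.31 (edgeR adjusted p = 0.102), and was called without DMSO 48 hours replicate 4 (0.20, adjusted p = 0.0419), sorafenib 48 hours replicate 2 (0.18, adjusted p = 0.0452) or sorafenib 48 hours replicate 4 (0.21, adjusted p = 0.0325). It was also called with total counts (0.25, adjusted p = 0.0154), limma voom (0.19, adjusted p = 0.036), a filter of at least 10 counts in every sample (0.22, adjusted p = 0.0122) and TMM from chromosomes 1 to 13 (0.21, adjusted p = 0.0175). Comparisons of the 2 times share their libraries with the treatment comparisons, and time cannot be told apart from differences in culture and harvest.
In DMSO, 2 genes were higher at 7 days than at 48 hours (Pdss1 and Coq7) and 5 lower (Coq2, Coq6, Coq8a, Coq9 and Aifm2), beside 23.9% and 25.5% of all genes. 7 of the 10 did not overlap, and neither did 50.8% of all genes. Besides Coq8a and Pdss1, the shifts were 0.35 for Coq7, −0.31 for Coq2, −0.56 for Coq9 and −0.14 for Coq6 on the log2 scale. The call of Coq6 (edgeR adjusted p = 0.0258) was lost without DMSO 48 hours replicate 2 (−0.13, adjusted p = 0.0606) or without DMSO 7 days replicate 2 (−0.14, adjusted p = 0.0521) or replicate 3 (−0.13, adjusted p = 0.0609).
In sorafenib, Pdss1 was higher at 7 days (0.29, edgeR adjusted p = 0.00262) and Coq2, Coq3, Coq5, Coq9 and Aifm2 were lower, where 17.5% of all genes were higher and 22.3% lower. Over all genes these were 3570 higher and 4550 lower, and 4299 higher and 3874 lower with TMM from chromosomes 1 to 13 and 4047 higher and 3935 lower with total counts. 5 of the 10 did not overlap, beside 35.8% of all genes. Coq3 had the largest of these changes among the 10 (−0.48, adjusted p = 5.42e-07) and Coq9 changed by −0.20. The calls of Coq2 (−0.094, adjusted p = 0.0461) and Coq5 (−0.14, adjusted p = 0.0355) were lost under 24 and 15 of 25 alternatives.

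Levels of different genes were compared as normalized counts per kilobase of exon, with all annotated exons of a gene merged. In DMSO at 48 hours, Coq9 had the highest level (391 ± 21.4 SD, n = 4), followed by Coq2 (186 ± 3.62), Coq6 (160.0 ± 4.32) and Coq5 (143 ± 9.79). The libraries of Coq6 and Coq5 overlapped, and those of Coq2 stood above both. Coq7 (88.6 ± 3.65) and Pdss1 (87.2 ± 3.60) came next and overlapped too. Coq3 (57.7 ± 0.788), Aifm2 (52.4 ± 2.14), Pdss2 (20.7 ± 0.961) and Coq8a (16.5 ± 1.3) were lower. Coq9 was the highest and Coq8a the lowest in all 4 groups, where Coq8a had 2.32 ± 0.145 in sorafenib at 48 hours, 5.32 ± 0.699 in DMSO and 1.87 ± 0.386 in sorafenib at 7 days. Merged exons count unused isoforms as length, which lowers the level of genes with long annotations such as Coq8a, 18192 exon bases, and Pdss2, 15031. By the length of the canonical transcript Coq8a stayed the lowest in all 4 groups, but at 7 days Coq9 ranked 2 in DMSO, behind Coq7, and 2 in sorafenib, behind Coq2.

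**Figure D3:**
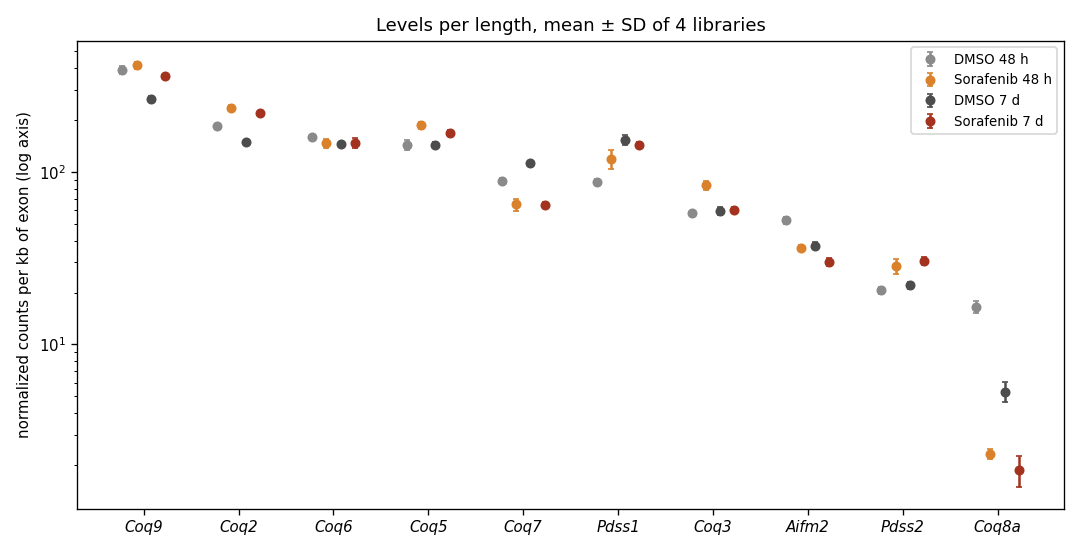
Normalized counts per kilobase of exon (y axis, log scale) of the 10 genes, ordered by their level in DMSO at 48 hours, as mean ± SD of 4 libraries in each group. Coq9 is at the top in every group, and Coq8a spans from 16.5 in DMSO at 48 hours to 1.87 in sorafenib at 7 days.

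Of 11 other coenzyme Q genes in the table, 10 were tested, and Tat, an enzyme of tyrosine breakdown, had too few counts. At 48 hours 4 were higher and 2 lower (all genes: 26.9% and 27.7%), with a median log2 fold change of 0.16 (all genes: −0.051). At 7 days 4 were higher and 4 lower (all genes: 28.9% and 27.9%), with a median of −0.035 (all genes: 0.020). Without replicate 2 of sorafenib for 48 hours the median at 48 hours was 0.11, and 5 were higher, Parl being added.
Coq10b, which encodes a protein that binds coenzyme Q and is needed for its use in respiration, had 197, 193, 196 and 199 normalized counts in DMSO and 819, 836, 804 and 751 in sorafenib at 48 hours. At 7 days DMSO libraries had 809.8, 866, 833 and 865 and sorafenib libraries 1064, 1121, 1140 and 1028. The DMSO libraries at 48 hours were the low group, and the other 3 groups were several times higher. The level was 4.08-fold higher with sorafenib at 48 hours (log2 fold change 2.03 ± 0.053, edgeR adjusted p = 2.85e-17) and 1.29-fold higher at 7 days (adjusted p = 4.06e-07), and it rose 4.29-fold in DMSO between the 2 times (adjusted p = 1.47e-16). A processed pseudogene overlaps 5.67% of its exon bases. Its relative Coq10a was higher at both times, by 0.84 and 1.07 on the log2 scale (edgeR adjusted p = 1.17e-07 and 2.8e-09). The ratio of Coq10b to Coq10a per kilobase was 0.668 to 0.844 in DMSO at 48 hours, 1.62 to 1.87 in sorafenib at 48 hours, 3.64 to 4.43 in DMSO at 7 days and 2.27 to 2.54 in sorafenib at 7 days. By canonical transcript length it was 0.957 to 1.21, 2.32 to 2.68, 5.21 to 6.35 and 3.26 to 3.64 in the same order of groups.

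Coq8b, the close relative of Coq8a, had 567 ± 20.8 (SD, n = 4) normalized counts in DMSO and 561 ± 33.8 in sorafenib at 48 hours, and 254 ± 14.4 and 313 ± 30.3 at 7 days. It did not share the drop of Coq8a at 48 hours (−0.012, interval −0.15 to 0.12) and was higher at 7 days (0.29, edgeR adjusted p = 0.00154). Gm15567 and Itpkc on the opposite strand overlap 16.1% and 13.9% of the exon bases of Coq8b. Per kilobase, Coq8b stood at 3.03 to 3.89 times the level of Coq8a in DMSO libraries at 48 hours and at 21.8 to 26.7 times in sorafenib libraries. At 7 days the ratio was 4.05 to 5.95 in DMSO and 13.4 to 24.1 in sorafenib, so the ranges of the treatments did not overlap at either time.
Fdxr, the reductase that passes electrons through ferredoxin to COQ6, had 812 ± 25.0 and 473 ± 32.4 normalized counts in DMSO and sorafenib at 48 hours, and 778 ± 51.9 and 265 ± 17.8 at 7 days. It was lower at both times, by 1.72-fold and 2.94-fold (edgeR adjusted p = 5.98e-10 and 1.89e-14). The ferredoxin Fdx2 had a log2 fold change of 0.063 at 48 hours and was lower at 7 days (−0.35, adjusted p = 0.00239), with 72.4% of its exon bases shared with another gene model on the same strand.
Pptc7, a mitochondrial phosphatase linked to coenzyme Q synthesis, was higher at both times, by 0.90 and 0.56 on the log2 scale (edgeR adjusted p = 3.62e-12 and 2.6e-09). It shares 22.4% of its exon bases with Rad9b on the opposite strand. Coq4, a ring-modifying member of the synthesis complex, was lower at both, by log2 values of −0.29 and −0.55 (adjusted p = 0.00515 and 7.64e-06), and shares 26.7% of its exon bases with Trub2 on the opposite strand. Hpdl, an enzyme of the ring precursor pathway, had a log2 fold change of 0.16 at 48 hours (interval −0.19 to 0.51) and was lower at 7 days (−0.86, adjusted p = 0.000296).
Stard7, a lipid carrier that moves coenzyme Q out of mitochondria, had a log2 fold change of 0.16 at 48 hours (edgeR adjusted p = 8.98e-05) and −0.016 at 7 days (interval −0.078 to 0.045). Parl, the protease that cleaves STARD7, had 0.18 at 48 hours (adjusted p = 0.075). Without replicate 2 of sorafenib, where chromosome 16 stood low, it was called (0.28, adjusted p = 5.5e-08). At 7 days Parl had −0.054.

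The isoprenoid units of the tail come from the mevalonate pathway. Of 9 of its genes, 8 were lower and 0 higher at both times (all genes: 18.0% and 18.5%). Ggps1, which makes geranylgeranyl diphosphate, was not called at either time (0.026 and −0.10). Without replicate 2 of sorafenib for 48 hours Ggps1 was called lower at 7 days. The median log2 fold change was −1.48 at 48 hours and −1.98 at 7 days. Hmgcs1, HMG-CoA synthase, ranged over 15556 to 16440 normalized counts in DMSO and 4751 to 5227 in sorafenib at 48 hours, and over 15031 to 16320 and 1949 to 2170 at 7 days. Its level was 3.23-fold and 7.51-fold lower (edgeR adjusted p = 4.75e-18 and 3.28e-21). Idi1, isopentenyl diphosphate isomerase, was 2.78-fold and 5.66-fold lower, and Fdps, farnesyl diphosphate synthase, 2.08-fold and 4.81-fold lower. These 8 genes thus moved opposite to Pdss1 and Pdss2 at 48 hours, and opposite to Pdss2 at 7 days, when Pdss1 was not called.

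**Figure D4:**
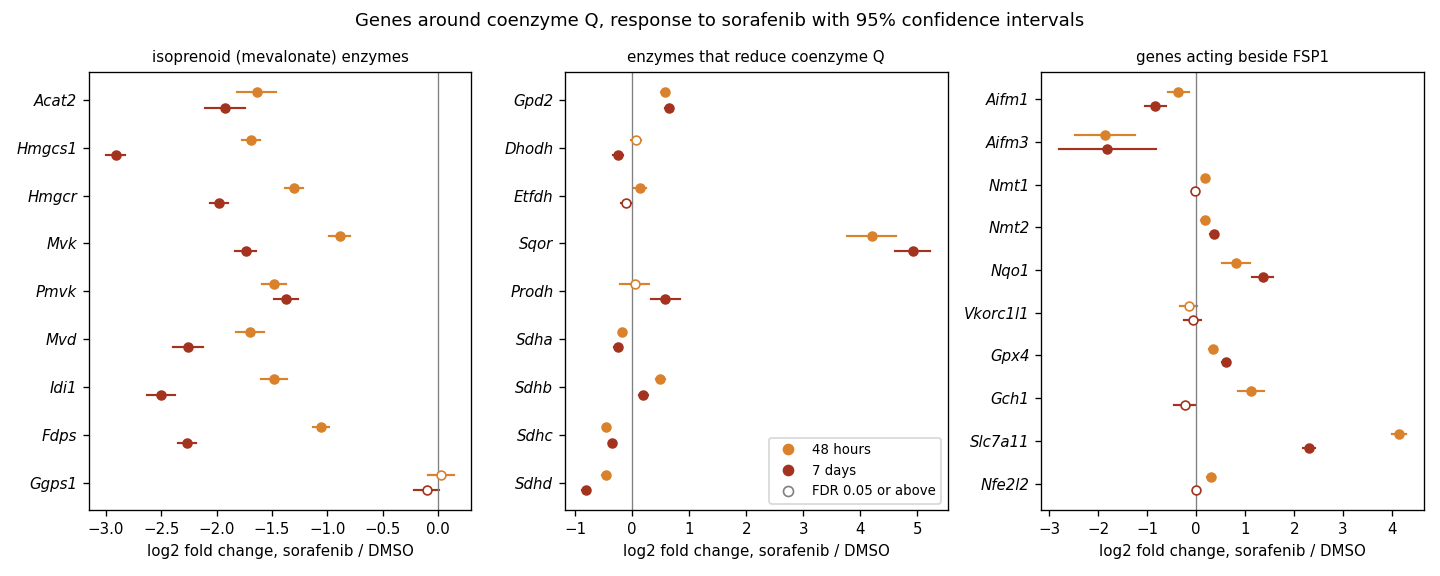
Log2 fold change between sorafenib and DMSO (x axis) for genes of the mevalonate pathway, enzymes that reduce coenzyme Q and genes that act beside FSP1, at 48 hours and 7 days. Lines are 95% confidence intervals and open points have an FDR of 0.05 or above. Sqor (4.20 and 4.92) and Slc7a11 (4.15 and 2.30) lie farthest to the right.

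Of 9 tested enzymes that pass electrons to coenzyme Q, 4 were higher and 3 lower at 48 hours (all genes: 26.9% and 27.7%). At 7 days 4 were higher and 4 lower (all genes: 28.9% and 27.9%). The medians of these enzymes were 0.067 and −0.10. Without replicate 2 of sorafenib for 48 hours 3 were higher at 48 hours and 5 lower at 7 days, as Etfdh (0.14 and −0.10), which takes electrons from fatty acid oxidation, lost a call and gained one. Chdh, choline dehydrogenase, had too few counts. Sqor, which oxidizes hydrogen sulfide, had 1.74 to 9.51 normalized counts in DMSO and 112 to 136 in sorafenib at 48 hours, and 9.50 to 18.4 and 401 to 439.8 at 7 days. It was nearly silent in DMSO, and the log2 fold changes were 4.20 ± 0.21 and 4.92 ± 0.15 (edgeR adjusted p = 5.95e-13 and 1.9e-16). Gpd2, the mitochondrial glycerol 3-phosphate dehydrogenase, was 1.5-fold and 1.57-fold higher (adjusted p = 5.77e-12 and 7.78e-13). Sdhd, a membrane anchor of succinate dehydrogenase, was 1.37-fold and 1.74-fold lower (adjusted p = 3.15e-10 and 3.49e-14).
Among 10 genes that act beside FSP1 or resemble it, 7 were higher and 2 lower at 48 hours (all genes: 26.9% and 27.7%). At 7 days 4 were higher and 2 lower (all genes: 28.9% and 27.9%). The medians of these 10 genes were 0.24 and −0.016. Without that library 3 were lower at 7 days, Gch1 (−0.24), the first enzyme of tetrahydrobiopterin synthesis, being added. Slc7a11, the cystine transporter that feeds glutathione synthesis, had 79.2 to 96.0 normalized counts in DMSO and 1470 to 1698 in sorafenib at 48 hours, and 384 to 456 and 2020 to 2143 at 7 days. It was 17.7-fold and 4.93-fold higher (edgeR adjusted p = 5.21e-20 and 5.92e-18). Nqo1, a quinone reductase, was 1.75-fold and 2.57-fold higher (adjusted p = 3.04e-05 and 3.57e-10). Aifm3, a relative of Aifm2, was lower at both times (log2 fold change −1.86 ± 0.29 and −1.81 ± 0.48, adjusted p = 1.57e-05 and 0.00283) at low counts, 1 to 5 reads in the sorafenib libraries at 7 days. Without replicate 2 of sorafenib for 48 hours its value at 48 hours was −1.69, adjusted p = 1.39e-06. Aifm2 was lower with the drug at both times, as was its relative Aifm3, and both moved opposite to Slc7a11 and Nqo1.

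Genes whose levels over the 16 libraries were most like those of Aifm2 or Coq8a were found by the root mean square difference of centred log2 normalized counts, among 10646 genes with a mean of at least 100. For Aifm2 the 5 closest were Oip5 (0.0693), Vrk3 (0.0695), Erbb2 (0.0697), Tfdp2 (0.0721) and Slc25a20 (0.0725), on a log2 range of 0.91 for Aifm2 itself. Those closest to Coq8a were Zfp503 (0.228), Phactr1 (0.271), Egln3 (0.273), Ccng2 (0.275) and Lbp (0.276), on a range of 3.63. Zfp503 had means of 1672 and 293 in DMSO and sorafenib at 48 hours and 758 and 232 at 7 days. The order of groups is that of Coq8a, which follows from selection by likeness over these same libraries and is no separate result. The points share the libraries and their scaling.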

How the data were processed

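The deposited values are counts of reads per gene, without normalization. Per the labels' processing notes the authors aligned reads to GRCm39 with STAR 2.7.1a and counted them with featureCounts 2.0.6. The strand setting and the annotation are not given in the sources used here. Libraries were made with the Illumina Stranded mRNA kit.

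Genes with fewer than 10 counts in total were removed, which left 20444 of 40840. The main test was edgeR 4.0.16 on R 4.3.3 (quasi-likelihood, TMM, 1 model of 4 groups, no block), with Benjamini-Hochberg adjustment over all genes tested and a call at an FDR under 0.05. Normalized counts are counts over the TMM-scaled library total, set to the geometric mean library. Total counts per library were 16586254 to 30828427, which limits genes of few counts such as Coq8a. For the listed genes a permutation test of 4 against 4 libraries was run, exact and two-sided, whose smallest p is 0.0286. Alternatives were DESeq2 1.42.0, limma 3.58.1, other scalings and filters, a replicate block and each library left out. The steps were tested on simulated data.

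The 10 genes, the lists and tests were chosen with earlier results of these data known. A gene of these lists and a marker are not reported here. Named genes were those 10, all other measured coenzyme Q genes, the 3 called genes with the largest absolute log2 fold change in each further list, and the 5 genes most like Aifm2 and Coq8a. Ggps1, Etfdh, Gch1 and the genes behind marker and strand checks, were named after their values were seen. Coordinates come from GENCODE vM39 on GRCm39 for gene lengths and from RefSeq on GRCm38.p6 for the promoter windows, and were not mixed. The chi-square per gene between replicates of a group ranged from 1.58 to 71.6, above the 1 that counting error gives.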

Additional observations from a re-analysis of the deposited data

Results flagged for a closer look

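The response to sorafenib differed between 7 days and 48 hours for 7 of the 10 genes by edgeR's test of the difference itself, given as the 7 day minus the 48 hour log2 fold change. By the same test 15.5% of all genes were called positive and 21.3% negative. The difference was −0.52 for Pdss1, −0.52 for Coq3 and −0.37 for Coq7, whose 7 day value was the lower, and 0.22 for Coq2, 1.35 for Coq8a, 0.35 for Coq9 and 0.22 for Aifm2. Among these, the call of Aifm2 was lost on leaving out each of 4 single libraries in turn.

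A sample stood far from the others of its group in 2 of 40 groups of 4, where chance gives about 1 in 20. Coq6 had 652 normalized counts in replicate 4 of DMSO for 48 hours, against 685 to 689.7 in the other 3. Coq7 had 438 in replicate 4 of sorafenib for 7 days, against 403 to 408.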

How the results depend on the processing

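The alternatives were DESeq2, its size factors, total counts, limma voom with quality weights, no filter beyond 1 count in any sample, at least 10 counts in every sample (the stricter filter), only the 2 groups compared, a replicate block and each library left out. TMM from chromosomes 1 to 13 and the canonical transcript length were chosen after seeing the data. Of 1240 comparisons of a fold change of the 10 genes with its main value, 1145 kept direction and side of the threshold. Counts of the 10 genes called at 48 hours were 5 to 6 higher and 3 to 4 lower, and at 7 days 4 higher and 3 lower, under all alternatives. The count lower in sorafenib over time was 5 and became 3 with DESeq2, DESeq2 size factors, total counts, limma voom, the stricter filter, only the 2 groups and TMM from chromosomes 1 to 13, and 3 to 4 with a library left out, as Coq2 or Coq5 lost their calls. Coq6 gained a call for the difference between responses under 7 alternatives. Coq9 at 48 hours was called with no filter (0.13, adjusted p = 0.0262). Under the same setting Coq6 at 48 hours lost its call (−0.090, edgeR adjusted p = 0.206). So did Coq6 in DMSO over time (−0.13, edgeR adjusted p = 0.0619) and the Aifm2 difference between responses (0.20, edgeR adjusted p = 0.0822). The ratio of Coq9 to Coq8a in DMSO at 48 hours, 23.8 per kilobase, was 10.1 by canonical transcript length and 4.45 without a length. The median of all genes at 48 hours was −0.051, and −0.12 with total counts.

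Values that changed sign were near 0 and not called in the main analysis. Coq8b, sorafenib against DMSO at 48 hours, was −0.012, and 0.0033 with limma voom, 0.028 with no filter and −0.071 to 0.012 with a library left out. Fdx2, sorafenib against DMSO at 48 hours, was 0.063, and −0.0092 with total counts and −0.025 to 0.10 with a library left out. Coq3, sorafenib against DMSO at 7 days, was 0.015, and −0.018 to 0.042 with a library left out. Coq6, sorafenib against DMSO at 7 days, was 0.026, and −0.016 to 0.047 with a library left out. Stard7, sorafenib against DMSO at 7 days, was −0.016, and 0.0064 with total counts, 0.0066 with no filter and 0.0095 with the stricter filter. Pdss2, the difference between responses, was 0.0054, and −0.011 with no filter and −0.033 to 0.071 with a library left out. Coq3, DMSO over time, was 0.041, and −0.018 with total counts. Coq5, DMSO over time, was 0.0018, and −0.057 with total counts, −0.0048 with limma voom, −0.011 with the stricter filter, −0.0061 with TMM from chromosomes 1 to 13 and −0.032 to 0.041 with a library left out. Coq6, sorafenib over time, was 0.016, and −0.027 to 0.065 with a library left out. Coq7, sorafenib over time, was −0.021, and 0.012 with DESeq2 size factors, 0.016 with total counts, 0.0082 with DESeq2, 0.032 with the stricter filter, 0.019 with only the 2 groups, 0.029 with TMM from chromosomes 1 to 13 and −0.050 to 0.037 with a library left out. The cause was not tested.

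With the replicate number as a replicate block, 5 of the 10 genes were higher and 3 lower at 48 hours, and 4 higher and 3 lower at 7 days. The calls of Coq6 at 48 hours, of the Aifm2 difference between responses and of Coq2 in sorafenib over time were lost. The labels share only a number. Correlations of same-numbered libraries' deviations were −0.18 to 0.13 over the 4 comparisons, and 1 of 8 libraries at 48 hours and 3 of 8 at 7 days correlated best with its own number.

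Depth limits Coq8a, at 23 to 45 counts in treated libraries at 7 days, and Aifm3.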
